A study of Mus musculus with 8 samples.

Results

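New intragenic PU.1 peaks without CEBPA are regions inside genes where PU.1 was called bound only in the leukaemic cells that received wild-type PU.1, and where CEBPA was called in neither condition. There were 4368 of them among the 15683 PU.1 peaks of those cells, or 27.9%. The cells were X18.1.1, a radiation-induced murine acute myeloid leukaemia line in which one Pu.1 allele is deleted and the other carries mutations, so that only mutant PU.1 is made. The cells were transduced with an empty retroviral vector (EV, here PU.1−) or with PuER (here PU.1+), in which wild-type PU.1 is joined to the oestrogen receptor and becomes active on 4-hydroxytamoxifen (OHT). Each condition was 1 clonal line, and PU.1− and PU.1+ cells alike received 100 nM OHT for 2 h before chromatin was precipitated. The PU.1 antibody also detects the mutant protein, a second antibody took CEBPA, and regions of read accumulation were called as peaks. Of the 8 samples listed, the 4 with peak coordinates were used, which is 1 library for each antibody and line.

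The members were chosen by the peak calls themselves. Of the 15683 PU.1+ peaks, 12714 (81.1%) overlapped no PU.1− peak and are called new here. Of the new peaks, 9482 (74.6%) overlapped no CEBPA peak of either line, by the rule that 1 shared base is an overlap. Of those, 4368 (46.1%) lay inside a protein-coding gene with their centre more than 1000 bp from every start of a transcript of such genes, 4101 lay between genes, and the rest lay at starts. These counts describe the choice and test nothing. At the distance threshold, 37 members lay within 100 bp beyond it, and 60 otherwise eligible peaks lay within 100 bp short of it. At the CEBPA threshold, 69 members had a CEBPA peak less than 100 bp from their edge, whereas 79 intragenic new peaks were left out for an overlap of less than 100 bp. At the PU.1− threshold the numbers were 7 and 4.

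Every peak of the 4 lists was 400 bp wide and had no height, score or read count, so how deeply the libraries were read is unknown. Whether a new peak reflects binding absent from PU.1− cells or binding below the calling threshold there cannot be told apart. The 2 lines also differ as clones, which cannot be told apart from the effect of PuER. Without replicates there was no test between the lines. Intervals beside shares are exact 95% intervals (Clopper-Pearson), which cover counting error only.

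PU.1 belongs to the ETS family, whose members contact DNA through a GGAA core, and the bases on either side of the core differ between family members. PU.1 prefers a purine-rich left side, whereas ETS1 and its relatives accept a C close to the core. PU.1 also binds together with IRF4 or IRF8 at composite elements in which an ETS core is followed by an IRF half-site, and CEBPA and RUNX1 are its usual partners in myeloid cells. In macrophages most PU.1 binding lies away from promoters, in introns and between genes, at elements that act as enhancers.

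The sequences at the centres of the members held these elements. The first set shows members whose PU.1-type site, GAGGAAGT, lay nearest the peak centre in the genes named below, with the site in capitals. All windows are the central 80 bp of a peak in the GRCm38 (mm10) reference, written 5′ to 3′ on the strand that carries the site. Members outside the RefSeq body of the gene were passed over in all sets except for one near Irf8.
Lcp1, intron 1 of 15, chr14:75164080-75164159, minus strand: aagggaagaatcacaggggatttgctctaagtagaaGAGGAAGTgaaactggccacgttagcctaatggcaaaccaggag
Adgrl3, intron of a longer transcript, chr5:81078177-81078256, plus strand: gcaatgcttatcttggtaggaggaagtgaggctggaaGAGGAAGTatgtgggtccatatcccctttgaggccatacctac
Inpp5d, intron 2 of 26, chr1:87658136-87658215, minus strand: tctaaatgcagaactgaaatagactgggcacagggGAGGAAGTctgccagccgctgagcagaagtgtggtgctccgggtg
Fli1, intron 1 of 8, chr9:32507759-32507838, plus strand: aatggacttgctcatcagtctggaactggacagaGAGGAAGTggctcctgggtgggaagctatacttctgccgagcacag
Irf2, intron 1 of 8, chr8:46765086-46765165, minus strand: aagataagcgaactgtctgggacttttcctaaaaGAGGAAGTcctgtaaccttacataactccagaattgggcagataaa
Nod2, intron 4 of 12, chr8:88666613-88666692, plus strand: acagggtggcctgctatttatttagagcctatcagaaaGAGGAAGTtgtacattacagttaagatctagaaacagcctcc
Plcg2, intron 2 of 32, chr8:117543884-117543963, minus strand: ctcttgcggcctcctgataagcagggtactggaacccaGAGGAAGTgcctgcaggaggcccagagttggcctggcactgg
In these windows the centre of the site stood 0 to 2 bp from the peak centre.

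The next set shows sites in which the ETS core is followed by an IRF half-site, GGAANTGAA, which is marked in capitals. The Lcp1 window is the same as above, since its GAGGAAGT and its composite site overlap.
Lcp1, intron 1 of 15, chr14:75164080-75164159, minus strand: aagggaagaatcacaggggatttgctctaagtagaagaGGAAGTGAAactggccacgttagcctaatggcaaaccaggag
Prkcq, intron 1 of 17, chr2:11197138-11197217, minus strand: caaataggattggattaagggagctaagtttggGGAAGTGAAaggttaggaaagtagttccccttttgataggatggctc
Gm20388, beyond the end of Irf8, chr8:120786554-120786633, plus strand: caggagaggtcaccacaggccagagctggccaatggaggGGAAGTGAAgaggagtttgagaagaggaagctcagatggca
The third window lies inside a GENCODE gene model, Gm20388, which runs across many genes. In RefSeq it lies in no protein-coding gene, 29.9 kb beyond the end of Irf8, which encodes an IRF partner of PU.1.

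A minority of members held an ETS1-type site or a RUNX site, and their windows are shown for contrast, with CAGGAAGT in capitals in the first 3 and TGTGGT or TGCGGT in capitals in the last 3.
Bco2, intron 1 of 11, chr9:50553763-50553842, minus strand: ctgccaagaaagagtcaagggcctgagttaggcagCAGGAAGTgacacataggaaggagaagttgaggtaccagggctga
Fam107b, intron 1 of 3, chr2:3707420-3707499, plus strand: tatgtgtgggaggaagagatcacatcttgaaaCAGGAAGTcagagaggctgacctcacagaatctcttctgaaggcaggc
Il2ra, intron 1 of 7, chr2:11662205-11662284, minus strand: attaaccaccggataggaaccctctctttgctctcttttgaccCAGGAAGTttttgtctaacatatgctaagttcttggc
Bcl2, intron 1 of 1, chr1:106632091-106632170, minus strand: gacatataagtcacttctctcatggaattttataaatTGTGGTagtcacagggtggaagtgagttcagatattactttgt
Rin3, intron 3 of 9, chr12:102339324-102339403, plus strand: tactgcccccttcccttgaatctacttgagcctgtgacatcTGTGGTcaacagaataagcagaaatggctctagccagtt
Blnk, intron 4 of 16, chr19:40963181-40963260, plus strand: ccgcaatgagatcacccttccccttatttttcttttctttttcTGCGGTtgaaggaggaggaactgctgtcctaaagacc
The Bcl2 window also held GGAAGT, downstream of its RUNX site. The Rin3 and Blnk windows held no GGAAGT.

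Windows with none of the motifs searched still tended to hold the bare GGAA core or its complement TTCC, as in 2 members printed here without capitals.
Bcl2l1, intron 2 of 2, chr2:152788951-152789030, plus strand: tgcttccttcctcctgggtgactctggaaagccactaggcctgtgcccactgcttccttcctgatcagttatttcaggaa
Bco2, intron 6 of 11, chr9:50540393-50540472, plus strand: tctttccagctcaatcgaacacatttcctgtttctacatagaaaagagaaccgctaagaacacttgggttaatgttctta
Both windows held TTCC more than once but neither ACTTCC nor GGAAGT.

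Counted over all members, 2008 of 4368 held GGAAGT in the central 80 bp (46.0%, 95% interval 44.5–47.5%). The same letters stood in 4.43% of windows of the same length centred 2000 bp to either side, and in 43.5% of all PU.1+ peaks. The GGAA core alone was present in 92.2% of members and in 55.8% of flanking windows. Most members thus had an ETS core at their centre, and fewer of them had the full GGAAGT.

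PU.1-type GAGGAAGT stood in 763 members (17.5%, 16.4–18.6%) against 0.492% of flanking windows, a 35.5-fold ratio. The composite GGAANTGAA stood in 547 members (12.5%, 11.6–13.5%) against 0.847%, a 14.8-fold ratio. ETS1-type CAGGAAGT or CCGGAAGT stood in 239 members (5.47%, 4.82–6.19%) against 0.527%. These definitions overlap one another, because both 8-base forms contain GGAAGT, and so does the composite wherever its variable base is G.

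Motifs of other factors stood closer to their flanking shares. RUNX (TGTGGT or TGCGGT) stood in 9.75% of members and 6.75% of flanks, AP-1 (TGANTCA) in 3.53% and 2.31%, and a pair of interferon-response half-sites (GAAANNGAA) in 6.43% and 2.64%. The CEBP motif TTGCNNAA stood in 3.71% of members (3.17–4.31%) and 3.19% of flanks, in peaks that were chosen for the lack of a CEBPA call. The motif of GATA factors (AGATAA) with 3.43% and E-box motifs (CACGTG or CAGCTG) with 4.49% stood at or under their flanking shares of 4.83% and 4.84%. None of the 10 motifs was found in 1495 members (34.2%), and 1263 of those held a GGAA core.

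**Figure D1:**
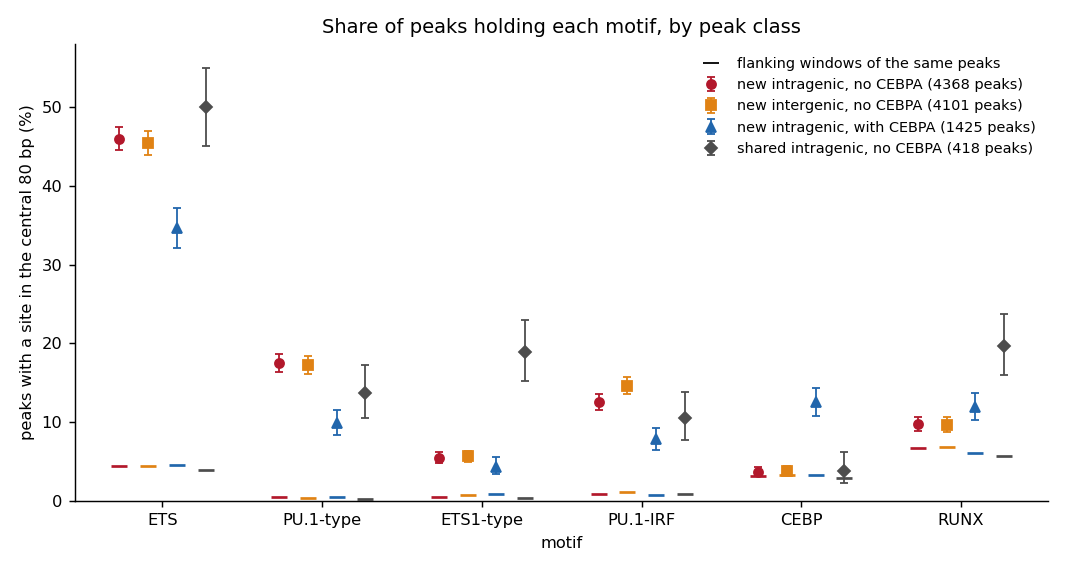
Percentage of peaks with a motif in the central 80 bp (vertical axis) for 6 motifs and 4 classes of PU.1+ peaks, with exact 95% intervals as bars and the share in flanking windows of the same peaks as short dashes. The new intragenic peaks without CEBPA (circles) lie beside the intergenic ones (squares) for all 6 motifs, and the shared peaks (diamonds) lie apart for ETS1-type (18.9% against 5.47%) and RUNX (19.6% against 9.75%).

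Other completions of the core were also counted over all members. GGAACT stood in 817 members (18.7%) against 4.99% of flanks, a 3.75-fold ratio, and GGAAGC stood in 14.9% against 5.13%. GGAAGA (17.4% against 8.04%) and GGAACC (7.21% against 2.61%) were also above their flanks, whereas GGAAAA (7.58% against 7.61%) was not. GGAATT (2.98% against 3.85%) and the other forms with T after the core were below their flanks. Of the 2360 members without GGAAGT, 547 (23.2%) held GGAACT, 500 (21.2%) GGAAGA and 435 (18.4%) GGAAGC.

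The bases around GGAAGT were read at 2311 sites in the members. Directly before the first G stood A at 61.1% and G at 30.9% of sites, and C at only 1.25%. One base farther out stood G at 50.8%, A at 27.8% and C at 13.4%. The base after GGAAGT was G at 58.7%. A count of all 8-base sequences, in which no motif was named, was led by forms of the same site. AGGAAGTG stood in 772 members (17.7%, 0.515% of flanks), GAGGAAGT in 763, AGAGGAAG in 768 and AAGAGGAA in 766. Of the 10 sequences that ranked highest by excess over the flanks, GGAAGTGA (570 members), GAAGTGAA (411) and AAGTGAAA (344) extended the core towards the IRF half-site, and GGGAAGTG (426) and GGAAGTGG (379) did not. The remaining one was AAAGAGGA (540). The same 10 sequences ranked highest among the 4101 new intergenic peaks.

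GGAAGT sites were concentrated at the peak centre, as the plot of sites along the peaks shows. The bins covering the 20 bp on either side of the centre held 17.2 and 17.3 sites per 100 members, and the outermost bins held 1.05 and 0.984. Over the whole 400 bp, 65.3% of members held GGAAGT, and the nearest site lay a median 21 bp from the centre (quartiles 8 and 43 bp). Within the central 80 bp, 1723 members had 1 such site and 285 (6.52%) had more than 1. A single GGAAGT was thus the usual number among members with this motif, and other completions of GGAA were not counted there.

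**Figure D2:**
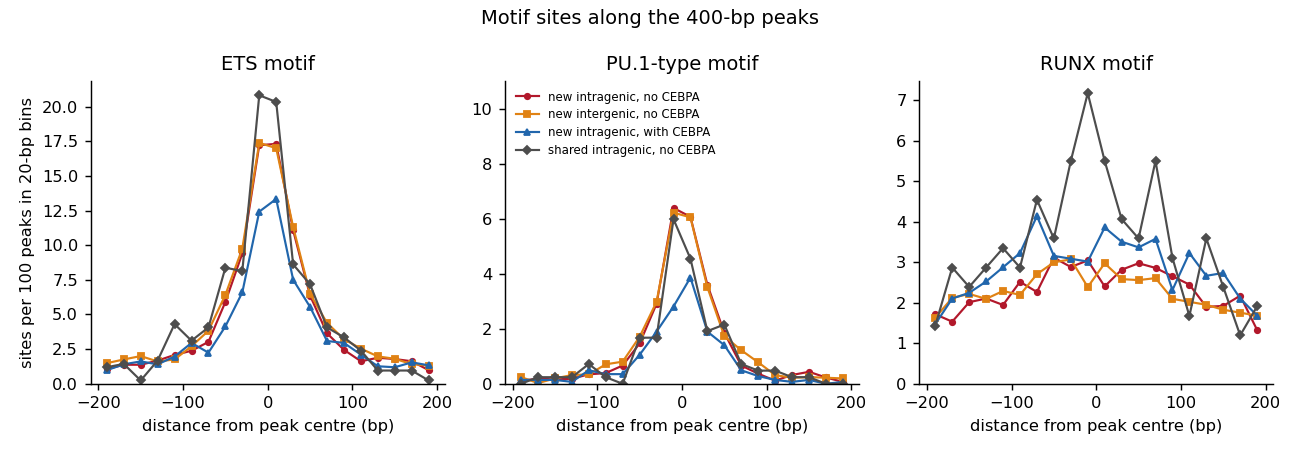
Sites per 100 peaks (vertical axis) in 20-bp bins by distance from the peak centre (horizontal axis, bp) for the ETS, PU.1-type and RUNX motifs, with 1 line for each class of PU.1+ peaks. ETS and PU.1-type sites of the new intragenic peaks without CEBPA rise to a central maximum (17.3 ETS sites per 100 peaks in a bin), whereas their RUNX sites show no comparable maximum and only the shared peaks hold more than 7 in a central bin.

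The sequence of the members was compared with 3 other classes of PU.1+ peaks. For 10 motifs and 3 classes this gave 30 differences in share, each with a Newcombe interval at a level adjusted over all 30 (Bonferroni). Sequence played no part in the choice of any class. The intervals cover counting error over the peaks of 1 library.

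Against new intergenic peaks without CEBPA, no interval of the 10 excluded 0. The GGAAGT share differed by 0.543 percentage points (−2.86 to 3.94) and the PU.1-type share by 0.277 (−2.32 to 2.86). The largest difference was in the composite GGAANTGAA, with 12.5% in the members and 14.6% in the intergenic peaks (−2.08 points, −4.43 to 0.256). That interval excluded 0 when promoters were set at 500 bp (−2.36 points) or when the central 200 bp (−3.15) or the whole peak (−3.07) was searched. For the other motifs the intervals bound any difference between new peaks inside and outside genes to a few points.

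Against the 1425 new intragenic peaks that overlapped a CEBPA peak, 4 of 10 intervals excluded 0. GGAAGT was 11.4 points more frequent in the members (6.68 to 15.9, 46.0% against 34.6%) and GAGGAAGT 7.64 points (4.38 to 10.5, 17.5% against 9.82%). The composite was 4.73 points more frequent (1.79 to 7.30), and without soft-masked windows that difference was 3.87 points with an interval that reached 0. The CEBP motif was less frequent in the members (−8.78 points, −11.9 to −6.09, 3.71% against 12.5%), a difference tied to the CEBPA calls by which the classes were chosen. The members thus had an ETS or PU.1-type site at their centre more often than new peaks that coincided with CEBPA.

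Against the 418 intragenic peaks without CEBPA that were called in both lines, 2 of 10 intervals excluded 0. ETS1-type sites were less frequent in the members (−13.4 points, −20.2 to −8.02, 5.47% against 18.9%), and so were RUNX sites (−9.86 points, −16.8 to −4.28, 9.75% against 19.6%). For GGAAGT itself (46.0% against 50.0%, −12.0 to 3.93) and GAGGAAGT (17.5% against 13.6%, −2.53 to 8.66) the intervals included 0. At the base 2 places before the core, shared peaks had C at 39.7% of 232 sites and members at 13.4%. In the base directly before the core, shared peaks had A at 78.9% and G at 7.76%, where members had G at 30.9%. Among intragenic peaks without CEBPA, those called in both lines hence carried the ETS1-type form of the core more often than the new ones.

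Subsets of the members differed little in their ETS motifs. GGAAGT stood in 46.8% of members in first introns (44.2–49.4%), 45.4% in other introns (43.5–47.3%) and 47.2% in exons (41.2–53.2%). It stood in 46.7% of the 724 members with a CEBPA peak within 2 kb (43.0–50.4%) and in 46.0% of the 605 with none within 50 kb (41.9–50.0%). The composite stood in 10.4% (8.24–12.8%) and 16.5% (13.7–19.7%) of those same 2 subsets, whose intervals do not overlap. That contrast was noticed among many subsets and was not tested further.

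Base composition set the members slightly apart from their surroundings. The median GC content of the peaks was 44.75% (quartiles 40.5 and 49%) and that of the flanks 43.75%. CpG dinucleotides were rarer than in the flanks, at a mean of 0.971 against 1.12 per 100 bp. Flanking windows, unlike the members, could lie at transcript starts. In the other classes the means of peaks and flanks were closer. They were 0.931 and 0.991 for new intergenic peaks without CEBPA, 1.10 and 1.12 for new intragenic ones with CEBPA, and 1.27 and 1.24 for shared ones. Soft-masked bases, which mark repeats in the reference, made up a mean of 17.5% of the peaks, 24.6% of the flanks and 28.1% of the gene-body territory. The central 80 bp were free of them in 2351 members (53.8%, 52.3–55.3%), against 61.1% of new intragenic peaks with CEBPA, 63.2% of shared ones and 51.5% of new intergenic ones without CEBPA (49.9–53.0%). Only 39 members had a wholly masked centre.

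Nearly all members lay in introns. By the annotation of all transcripts, 4086 (93.5%, 92.8–94.3%) were intronic, 131 (3.00%) lay in untranslated regions, 89 (2.04%) in coding exons and 62 (1.42%) in exons of non-coding transcripts. The territory open to members, which is all protein-coding gene bodies more than 1000 bp from a start, covered 957 Mb and was itself 92.7% intron, 3.37% untranslated region and 2.67% coding exon. The share in introns was hence near that of the territory.

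Position within the gene was uneven. First introns of the principal transcript held 1471 members (33.7%, 32.3–35.1%) and made up 21.97% of the territory, with 6.99 members per Mb against 4.56 per Mb over the whole territory. New intragenic peaks with CEBPA (35.2%) and shared ones without (36.4%) were in first introns about as often. When genes were divided into 5 equal stretches from start to end, the shares of the 4251 members lying in a single gene were 26.1, 22.5, 19.2, 17.6 and 14.7%.

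Density also declined with distance from the nearest transcript start. It was 6.77 members per Mb at 1 to 2 kb (6.13–7.46, exact Poisson interval), 6.76 at 2 to 5 kb, 5.31 at 10 to 20 kb, 2.66 at 50 to 100 kb and 1.43 beyond 100 kb (1.24–1.64), a 4.75-fold range. First introns lie near starts, yet within the same distance they held more members than the rest of the gene body, with 10.7 against 5.08 per Mb at 1 to 2 kb and 10.6 against 5.31 at 2 to 5 kb. At 50 to 100 kb the values were 2.85 and 2.62 per Mb, and beyond 100 kb 1.92 and 1.36. First introns thus had the higher density at each of these distances, with the widest gaps close to starts.

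**Figure D3:**
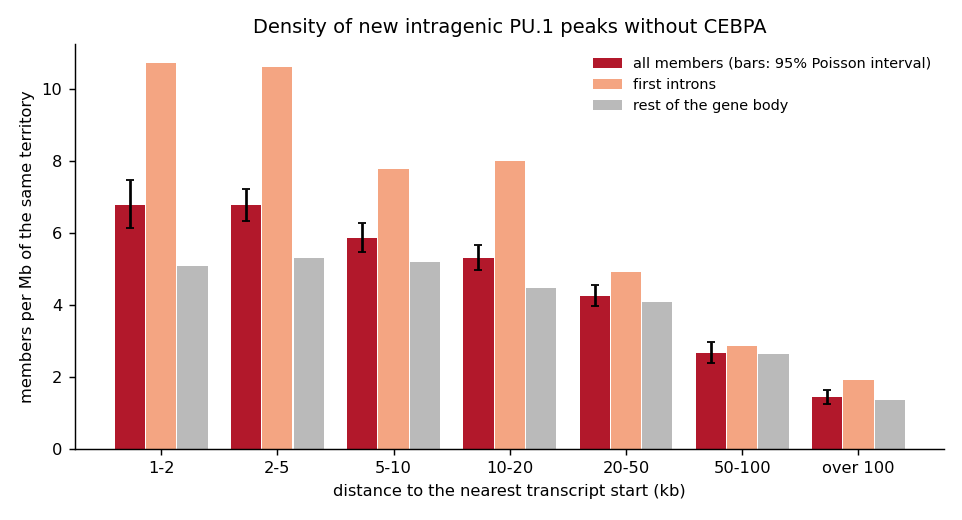
Members per Mb of the same territory (vertical axis) by distance to the nearest transcript start in kb (horizontal axis), for all members with 95% Poisson intervals, for first introns and for the rest of the gene body. Density declines from 6.77 to 1.43 per Mb, and the first-intron bars stand at 10.7 and 10.6 per Mb in the bins nearest the start, against 5.08 and 5.31 for the rest.

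Sites were read against the direction of the host gene in members lying in 1 gene. GGAAGT lay on the gene's strand at 1126 of 2243 sites (50.2%, 48.1–52.3%) and GAGGAAGT at 397 of 764 (52.0%, 48.4–55.6%). RUNX sites lay on it at 279 of 440 (63.4%, 58.7–67.9%). The flanking windows had the same lean, with 352 of 597 RUNX sites on the gene's strand (59.0%, 54.9–62.9%), and the members without masked bases had it at 63.6%. The composite lay on it at 242 of 534 sites (45.3%, 41.0–49.7%) and, in members without masked bases, at 121 of 274 (44.2%, 38.2–50.3%), against 54.2% in the flanks (42.0–66.0%). In members without masked bases GGAAGT lay on it at 678 of 1281 sites (52.9%, 50.2–55.7%), against 53.1% in the flanks (48.0–58.1%). The directions of GGAAGT and of the composite thus stayed within a few points of an even split, to either side of it. The intervals of the composite over all members and of GGAAGT without masked bases excluded an even split. Both overlapped the intervals of their flanks. The lean of RUNX sites was present in the peaks and beside them, with overlapping intervals.

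The members were spread over 2844 of 21951 protein-coding genes (13.0%), and over 2747 of the 14164 genes longer than 10 kb (19.4%). A single member was found in 1975 host genes, 497 had 2, 284 had 3 or 4, and 88 had 5 or more. Those 88 genes contained 554 members (12.7%). Length mattered for this count. Host genes had a median length of 71.7 kb against 17.4 kb for all genes, and the share of genes with a member was 1.25% under 10 kb, 7.67% at 10 to 30 kb, 22.2% at 30 to 100 kb and 44.2% above. Densities per 100 kb therefore stand beside the counts below, with 0.418 over all protein-coding genes as their background. By chromosome the density was highest on chromosome 19 (6.28 per Mb) and 15 (5.90) and lowest on X (2.44), followed by 14 (3.73).

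Host genes more often had PU.1 at their own promoter. A PU.1+ peak lay within 1000 bp of a start in 514 of the 2844 host genes (18.1%, 16.7–19.5%) and in 6.71% of other genes (6.36–7.08%). Among genes over 100 kb the shares were 17.3% and 4.39%. A CEBPA peak of the PU.1− line, called without wild-type PU.1, lay at the promoter of 32.4% of host genes and 17.5% of others, and 32.8% and 13.7% among genes over 100 kb. Genes with a member thus more often had a CEBPA peak at their start in the line without wild-type PU.1. The other genes are not free of new intragenic PU.1 peaks, since 497 of them held one with CEBPA.

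The nearest other peaks lay at some distance. The median distance between centres was 18.1 kb to the next PU.1+ peak, 66.2 kb to the next PU.1− peak and 10.1 kb to the next CEBPA peak of either line. For new intergenic peaks without CEBPA the medians were 18.9, 73.7 and 11.5 kb. List size also enters these distances, with 15683 PU.1+ and 5288 PU.1− peaks, and 20583 and 26119 CEBPA peaks of the PU.1+ and PU.1− lines. A CEBPA peak lay within 2 kb of 724 members (16.6%), and none within 100 kb of 245 (5.61%).

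The genes with the most members were very long. Hdac9, which encodes a class II histone deacetylase, had 15 in 870 kb, Adgrl3, an adhesion receptor, had 11 in 805 kb, and Lpp, a focal adhesion protein, had 10 in 599 kb. Pde4d, a cyclic AMP phosphodiesterase, had 10 in 1504 kb. Etv6, an ETS-family repressor, and Rere, a nuclear corepressor, had 9 each in 234 and 340 kb, which is 3.84 and 2.64 per 100 kb. In each of Etv6 and Rere, 6 of the 9 held GGAAGT at their centre, and 3 of those in Rere held GAGGAAGT. Tg, the thyroglobulin gene, had 8 in 180.0 kb, and 4 of them also lay in Sla, an adaptor of lymphoid and myeloid signalling that is nested in Tg.

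Of the 10 genes with the most members, 3 owed their rank to the gene model. Gm20388 in GENCODE spans 4435 kb and had 21 members, but RefSeq has no such gene there. By RefSeq 6 of the 21 lay in Ankrd11, 2 in Zfp469, 1 each in Abcb10, Acsf3, Banp and Gse1, and 9 in no protein-coding gene. Among those 9, 4 lay 6.74, 18.1, 27.3 and 29.9 kb beyond the end of Irf8, a factor that drives monocyte development, which was singled out here after its values were seen. Of these 4, 3 held GGAAGT, 1 of them as GAGGAAGT and 1 as GGAANTGAA. Fgfr2 spans 2961 kb in GENCODE with 9 members and 104 kb in RefSeq with 0. Fam107b had 8 members in GENCODE and 2 in RefSeq. Over all members, 4241 (97.1%) lay inside a RefSeq protein-coding gene.

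Shorter genes with several members ranked by density. Among genes with at least 4, Bco2, a carotenoid oxygenase, had 4 in 22.1 kb (18.1 per 100 kb), Hps3, a subunit of a lysosome-related organelle complex, 4 in 39.4 kb, and Map3k14, the kinase NIK of the non-canonical NF-κB pathway, 4 in 47.7 kb. Sla had 4 (7.84 per 100 kb), and Rin3, an exchange factor for RAB5, had 7 in 107.8 kb (6.49 per 100 kb). Ahnak, a large scaffold protein, had 5 in 87.6 kb. Crebrf, Baiap2, a regulator of actin at the membrane, and Rab8b, a GTPase of vesicle traffic, had 4 each. All 4 members of Map3k14 and of Rab8b lay in the first intron. Of the 7 members in Rin3, 5 held GGAAGT. In Bco2 1 of 4 did, and in Hps3 none of the 4. The plot of members along genes shows them running from near the start to near the end in Hdac9, Lpp, Rere, Etv6 and Rin3. In other genes drawn they covered a part only. The last member lay at 52.5% of the length of Adgrl3, 47.3% of Runx2 and 39.0% of Inpp5d, and the first in Bcl2 at 46.6%.

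**Figure D4:**
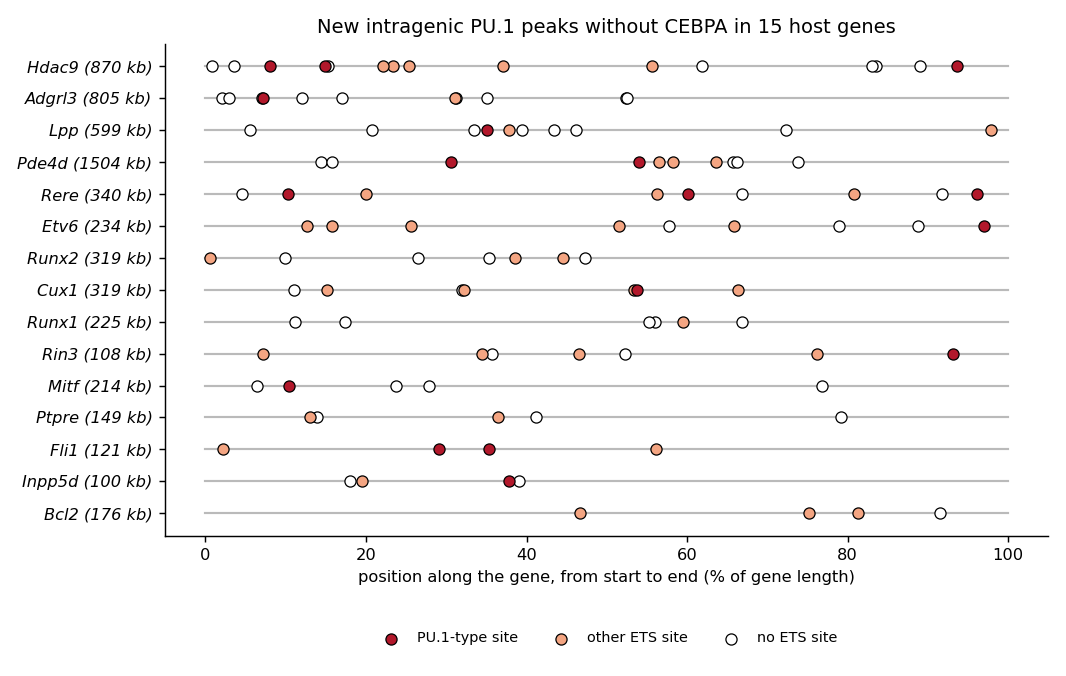
Positions of members along 15 host genes, from start to end as a percentage of gene length (horizontal axis), with the gene length in kb beside each name. Filled dark circles hold GAGGAAGT, light ones another GGAAGT site and open ones none. In Hdac9 the 15 members run from near the start to near the end, and all 4 in Fli1 hold GGAAGT.

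Genes were next read by 17 lists of known function, of which genes among the 3 with most members in each were named by rule and any further ones after their values were seen. All 17 lists were drawn up with earlier results of these data known, so none of them was blind to the data. Host counts in the lists stand beside 13.0% of all protein-coding genes and 19.4% of those over 10 kb. Among transcription factors, members were found in genes of the ETS family and of other haematopoietic regulators. In the ETS list, 6 of 15 genes had 20 members (1.74 per 100 kb): Etv6 with 9, Fli1 with 4, Elf1 with 3, Erg with 2, and Ets1 and Spi1 with 1 each. Spi1 encodes PU.1 itself, and its member lay in an intron 2319 bp from the nearest start with none of the 10 motifs. All 4 members in Fli1 held GGAAGT, 2 of them as GAGGAAGT.

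Of 27 other haematopoietic factors, 13 had 44 members (1.26 per 100 kb). Runx2 and Cux1 had 7 each, Runx1 and Foxp1 6 each, Bach2 5 and Tcf4 4. In Runx1, which encodes a partner of PU.1, 1 of 6 members held GGAAGT, and in Cux1 5 of 7 did. Of 39 macrophage and interferon factors, 8 (20.5%, 9.30–36.5%) had 12 members (1.17 per 100 kb), led by Irf2 with 3, and Nr4a1 and Stat5b with 2 each. The 4 members near Irf8 are not in that count, since they lie outside its gene body.

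Receptors and adhesion molecules of myeloid cells were also among the hosts. For the receptors the share of host genes was near the 19.4% of all genes over 10 kb. It was 22.2% for growth factor and cytokine receptors (8.62–42.3%) and 20.7% for pattern-recognition and Fc receptors (7.99–39.7%). Integrins and adhesion molecules had 52.2% (30.6–73.2%). Of 27 growth factor and cytokine receptors, 6 had 8 members (0.713 per 100 kb): Tgfbr1 with 3, and Csf1r, Flt3, Il1r2, Il1rap and Tnfrsf1b with 1 each. The member in Csf1r, the receptor for macrophage colony-stimulating factor, overlapped an exon of a non-coding transcript and held AP-1 and E-box motifs but no GGAAGT. Of 23 integrins and adhesion molecules, 12 had 20 members (1.47 per 100 kb), among them 5 in Cd47, 2 each in Cd44 and Itgb5, and 1 each in Itgam and Itgb2, whose products form the CD11b/CD18 integrin of monocytes. In RefSeq 3 of the 5 lay inside Cd47. Of 29 pattern-recognition and Fc receptors matched, 6 had 9 members (1.04 per 100 kb), among them Nod2 with 3 and Mrc1 with 2.

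The lists of signalling and cytoskeletal genes held the most members. Of 43 kinases, phosphatases and lipases, 26 had 64 members (1.26 per 100 kb). Ptpre had 5, and Inpp5d, Plcg2, Prkcb, Ptprc and Tec were among those with 4. Inpp5d encodes the lipid phosphatase SHIP1, which acts on the product of phosphoinositide 3-kinase. In Plcg2, 3 of 4 members held GAGGAAGT. Of 50 regulators of small GTPases and actin binders, 30 had 67 members (0.849 per 100 kb), led by Elmo1 with 6, Arhgap26 with 5, and Fmnl2 and Lcp1 with 4 each. All 4 members in Lcp1, which encodes the leukocyte actin bundler L-plastin, held GGAAGT, 3 of them as GAGGAAGT. Vav1, Vav2 and Vav3 held 1, 3 and 3, and the exchange factors Dock4, Dock5, Dock8, Dock10 and Dock11 held 3 each.

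Of 37 lysosome and phagosome genes, 12 had 20 members (1.68 per 100 kb). Mitf, a regulator of lysosomal genes, had 5, Hexa, a subunit of beta-hexosaminidase, 3 in 25.6 kb, and Lipa and Ncf4, lysosomal acid lipase and a subunit of the phagocyte oxidase, 2 each. Cybb, another subunit of that oxidase, had 1. Of 15 eicosanoid genes, 5 had 10 members (1.47 per 100 kb): Tbxas1 with 4, Hpgd and Pla2g4a with 2, and Alox5 and Ptgs1 with 1. Of the 18 genes of the BCL2 family, 3 (16.7%, 3.58–41.4%) had 6 members (1.38 per 100 kb): Bcl2 with 4, all in its first intron, and Mcl1 and Bcl2l1 with 1 each.

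Lists of other lineages lay on both sides of the value for all genes. T cell genes and erythroid and megakaryocyte genes lay somewhat above 0.418 members per 100 kb, and B cell and long neuronal genes below it. Of 30 T cell genes 6 had 10 members (0.525 per 100 kb), of which 4 lay in Prkcq. Of 19 B cell genes 3 had 3 (0.247 per 100 kb), in Bcl11a, Blnk and Pax5. Of 22 erythroid and megakaryocyte genes 4 had 4 (0.455 per 100 kb). Long neuronal genes, which offer much intron sequence (median length 1135 kb), had 18 members in 10 of 30 genes, or 0.0475 per 100 kb, 8.80-fold below the value for all genes. Hosts made up 33.3% of this list, against 13.0% of all genes and 44.2% of genes over 100 kb. Over all gene bodies the density fell to 1.43 per Mb beyond 100 kb from a start. The list was not compared at matched distance from starts. Ank2 had 4 of the 18 members. Of 52 ribosomal protein genes, 2 had 1 member each, Rpl11 and Rps14, and neither lay inside the RefSeq body of the gene. For 57 genes named in enrichment terms of the study, 25 had 49 members (2.00 per 100 kb), but those genes were picked with PU.1 binding in these samples and are not independent of it.

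**Figure D5:**
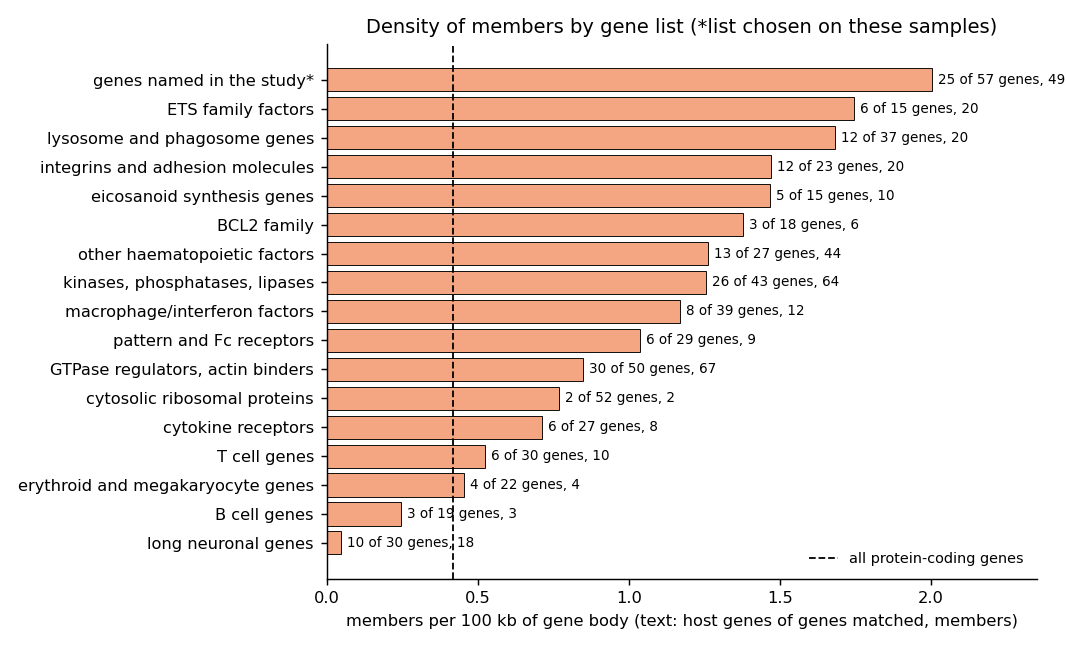
Members per 100 kb of gene body (horizontal axis) for 17 gene lists, with the number of host genes among genes matched and the number of members as text, and the value for all protein-coding genes (0.418 per 100 kb) as a dashed line. Of the 17 lists, only B cell genes (0.247) and long neuronal genes (0.0475) lie to the left of the line, and T cell (0.525) and erythroid and megakaryocyte genes (0.455) lie just to its right. All 17 lists were drawn up with earlier results of these data known, and the genes of the list marked with an asterisk were picked on these samples.

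Densities by list stand beside 0.418 per 100 kb for all genes and without a test, since the lists differ in gene length. By length, all genes had 0.269 members per 100 kb under 10 kb, 0.474 at 10 to 30 kb, 0.537 at 30 to 100 kb and 0.364 above. The myeloid, signalling, adhesion, lysosomal, eicosanoid and BCL2 lists lay above that range, T cell and erythroid and megakaryocyte genes lay within it, and long neuronal genes lay below it. The BCL2 density rested on 6 members, 4 of them in Bcl2. Some lists above the range had a share of host genes near the 19.4% of all genes over 10 kb. These were the BCL2 family (16.7%), macrophage and interferon factors (20.5%), cytokine receptors (22.2%) and pattern and Fc receptors (20.7%). Ribosomal protein genes (0.769) lay above it and B cell genes (0.247) below it on only 2 and 3 members. Expression of these genes was not analysed here, and its part in the densities was not tested.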

How the data were processed

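PU.1 and CEBPA ChIP-Seq was made in 2 clonal lines, 1 library per antibody and line. Per the submitters' processing notes, reads were aligned with Bowtie2 2.0.6 and peaks called with MACS2 2.0.10. The authors deposited lists of peak coordinates in GRCm38 (mm10), and these hold no counts, scores or heights. The calling threshold and the origin of the 400-bp width are not given in the sources used here. Depth is hence unknown. The samples for H3K27Ac and IgG were not used here.

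Members were PU.1+ peaks sharing no base with a PU.1− PU.1 peak or a CEBPA peak of either line, centred over 1000 bp from every transcript start of a protein-coding gene and inside such a gene (GENCODE M21). The members and lists were chosen with earlier results of these data known. Intron rank came from the principal transcript. Motifs were searched on both strands of the central 80 bp and of windows 2000 bp away. Shares have exact 95% intervals, and the 30 differences have Newcombe intervals at 99.8333% each (Bonferroni), all for counting error over the peaks of single libraries. Overlapping and neighbouring genes and the gene model limit host counts, so RefSeq gene bodies of the same build were checked. RefSeq genome sequence of GRCm38 was printed.

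Named genes were the 10 with most members, the 10 with most per 100 kb among those with at least 4, and the 3 with most in each of 17 lists. Some genes that meet these rules are not reported here. In the pattern and Fc receptor list, 29 of 30 symbols matched. Printed windows were intronic and nearest the peak centre. Alternatives were other overlaps, promoter distances, search windows, transcripts and 1 member per gene. RefSeq gene bodies and starts of coding transcripts were alternatives chosen after seeing the data. Intervals came from scipy 1.17.1, sequences were read with pysam 0.24.0, tables were handled with pandas 2.3.3 and numpy 2.4.6 in Python 3.11.15, and matplotlib 3.10.9 drew the figures. The steps were tested on simulated data.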

Additional observations from a re-analysis of the deposited data

How the results depend on the processing

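No paired analysis was possible because each antibody and line had 1 library. The absence of replicates, the unknown depth and the lack of peak heights limit every value.

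The number of members ranged from 3772 to 4816: 4562 when 50% of both peaks had to overlap, 4816 with centres within 100 bp, 4055 when any peak within 500 bp counted, 4659 and 3772 with promoters of 500 and 2500 bp, 4254 with starts of every gene type, 4565 with starts of coding transcripts only and 4359 with RefSeq gene bodies. Chromosomes 1 to 19 and X alone held all 4368. With 1 member per gene all 10 motif shares stayed within the interval.

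A wider search raised the shares, as more letters were read. In the central 200 bp they were 59.8% for ETS, 22.6% for PU.1-type, 8.49% for ETS1-type, 16.2% for the composite, 9.13% for CEBP and 23.2% for RUNX. In the whole peak they were 65.3, 24.2, 10.2, 18.3, 16.1 and 36.6%. Without soft-masked windows the ETS share was 48.4%. Introns held 94.4% with promoters of 2500 bp, 95.1% by basic transcripts and 92.6% with coding starts, and first introns held 31.5% with promoters of 2500 bp.

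Single differences were followed only for the ETS, PU.1-type, ETS1-type, composite, CEBP and RUNX motifs. Of 180 such differences under these alternatives, 158 kept direction and call. Over all 10 motifs, 4 intervals against shared peaks excluded 0 with 50% overlap and 4 with centres within 100 bp, where 2 had in the main setting. The additional ones were of motifs not among the 180 differences. Against intergenic peaks, 1 did with promoters of 500 bp (composite −2.36 points), in 200 bp (−3.15) and in the whole peak (−3.07). Against peaks with CEBPA, RUNX came to −3.85 points with centres within 100 bp, −4.55 in 200 bp and −6.57 in the whole peak, and these intervals excluded 0. The composite came to 3.87 points without soft-masked windows, where it did not. The cause was not tested.

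Differences that changed sign had 0 inside the interval both times. They were CEBP against shared peaks, at 0.0477 points (50% overlap), 0.864 (within 500 bp), 0.191 (promoters of 500 bp), 1.24 (200 bp), 0.544 (whole peak) and 0.0927 (coding starts). Against intergenic peaks they were RUNX at −0.0144 (centres within 100 bp), −0.207 (promoters of 2500 bp) and −0.285 (no soft-masked bases), ETS at −0.359 (200 bp), −1.06 (whole peak) and −0.572 (no soft-masked bases), PU.1-type at −0.887 (200 bp) and −1.11 (whole peak), and CEBP at 0.222 (no soft-masked bases).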

Other observations

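Some features of the members belong to none of the comparisons above. RUNX sites stood in 8.81% of members with GGAAGT and in 10.6% of those without. The composite GGAANTGAA stood in 17.1% and 8.60%, but its form with G as the variable base contains GGAAGT, so the definitions overlap. Members over 50 kb from a transcript start held GGAAGT in 49.7% of cases (45.3–54.1%) and those at 1 to 10 kb in 45.3% (43.2–47.4%).

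Host genes also held other PU.1 peaks. A new intragenic peak with CEBPA lay in 21.3% of the 2844 host genes and in 2.60% of other genes, and a shared one without CEBPA in 6.72% and 1.10%, counts that gene length also enters. Within 100 kb of Irf8 there were 8 PU.1+ peaks, of which 4 were members, 1 was new with CEBPA and 3 were shared with CEBPA. Irf8 was looked at after the members beyond its end had been seen.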
